A study of Homo sapiens with 6 samples.

Results

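The genes described here are 10 regulators of apoptosis: the BCL2 family genes BCL2, BCL2L1, BCL2A1, MCL1, BCL2L11, BAK1, BID, BIK and BAD, and the caspase inhibitor gene XIAP. They were chosen by name, as apoptosis regulators that are not classic p53 targets, and all 10 were found among the 60671 genes of the expression table. RNA-Seq was run on U87, an established human glioblastoma cell line, after 48 h in serum-free medium with 100 μM rutaecarpine (n = 3 libraries) or with the solvent alone (n = 3 libraries, the control group). Rutaecarpine is a plant alkaloid that the study examined as an activator of the aryl hydrocarbon receptor (AhR), and both groups received 0.1% DMSO. The study's general statistics section counts independent experiments as n, without naming the RNA-Seq libraries, and the labels do not say whether the 3 libraries of a group came from separate cultures. The p values measure the spread between these libraries, which may be technical if they did not. Values are TPM, which scale each gene by its length and each library to a fixed total, so levels can be compared between genes, but TPM carry no information on read depth. In bulk RNA, a change in the number of cells that express a gene and a change in RNA per cell cannot be told apart.

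Apoptosis through the mitochondrion is governed by the BCL2 family. The anti-apoptotic members BCL2, BCL-XL (encoded by BCL2L1), BFL-1 (BCL2A1) and MCL1 bind and restrain the effector proteins BAK and BAX, which otherwise make the outer mitochondrial membrane permeable and release cytochrome c. The BH3-only proteins BIM (BCL2L11), BID, BIK and BAD carry stress signals to the family by binding its anti-apoptotic members or the effectors. XIAP acts further down, by direct inhibition of activated caspases. Protein stability, phosphorylation and cleavage regulate many of these proteins, and none of these was measured by RNA-Seq.

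The libraries carried the marks of the labelled line. VIM, a mesenchymal filament gene, had 7498 ± 499 TPM in the control group (SD, n = 3), CD44 had 655 ± 210 TPM and NES 19.5 ± 2.01 TPM, while GFAP was between 3.48 and 5.41 TPM and S100B at most 0.25 TPM in the 6 libraries. CDKN2A and MTAP, which are deleted in U87, reached at most 0.06 and 0.01 TPM. Markers of other cells were low for PTPRC, CD3E, EPCAM and PECAM1 (at most 1.33 TPM), whereas CD68, which macrophages express strongly, was at 473 ± 33.0 TPM in the control group. Of the 5 marker genes tested, VIM, NES and CD68 were called lower after rutaecarpine at an adjusted p of at most 0.05. Higher calls numbered 0, and 4.68% of all genes tested were called lower. NES was close to that threshold (adjusted p = 0.0491 by limma with Benjamini-Hochberg adjustment). Control replicate 3 stood apart from the other libraries. The median log2(TPM + 1) of the genes whose longest transcript was in the longest 3rd of those tested was 3.24 in that library, 3.69 in rutaecarpine replicate 2 and between 3.93 and 3.99 in the other libraries. For the shortest 3rd it was between 3.68 and 3.75 in all 6. For the 9 genes tested, values are given with and without it.

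Promoter sequences are shown because the study asks about AhR, whose dioxin response element (DRE) has the core GCGTG. The RefSeq table (GRCh38.p14) gave 16 start sites for 8 of the 10 genes, and MCL1 and BIK had none there. In the 250 bases before each start, GCGTG was searched on both strands (CACGC on the other). It was held by 7 of the 16 stretches, against 32.2% of all 35116 promoters and 45.6% of the promoters of tested genes. The last share took only 1 stretch per gene. Some stretches of BID overlap each other, as do those of BAD, and the same match was counted in each. At least 1 stretch held it for 5 of the 8 genes. Some of these genes had several stretches, and no like share over all genes was worked out. The kappaB site was found in 0 of the 16 and in 9.96% of all promoters. The single stretch of BCL2A1 held neither motif, but its 250 bases lie inside the gene as GENCODE release 29 annotates it. Bases upstream of the BCL2A1 gene so annotated were not searched. The stretch shown, picked after the values were seen, is that of XIAP, which rose, and lies upstream of every transcript that GENCODE release 29 lists for the gene, at chrX:123859458-123859707 on the plus strand. It is written in the direction of transcription, and is in lower case throughout because it held no DRE core to mark.
XIAP: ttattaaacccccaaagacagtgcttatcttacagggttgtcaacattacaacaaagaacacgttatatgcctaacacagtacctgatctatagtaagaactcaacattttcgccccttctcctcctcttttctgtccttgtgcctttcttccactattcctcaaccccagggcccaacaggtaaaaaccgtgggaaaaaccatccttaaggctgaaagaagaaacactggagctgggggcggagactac
Against 0 cores in this stretch, that of another XIAP start, inside the annotated gene, held 2. A match is a description of the letters and not evidence of AhR binding.

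Of the 10 genes, 3 were called at an adjusted p of at most 0.05. BCL2A1 and XIAP rose after rutaecarpine, and BID fell. These calls come from limma on log2(TPM + 1) over the 14377 genes that reached 1 TPM in 3 or more libraries, with Benjamini-Hochberg adjustment over all of them. Of the 10 genes, 9 passed that filter. Of all genes tested, 9.29% were called, 4.6% higher and 4.68% lower. BCL2A1 was also a DEG, with an absolute log2 fold change above 1, as were 3.51% of the genes tested. The libraries of the groups did not overlap for 5 of the 9 genes, 3 of them above and 2 below the controls, and for 33.3% of all genes tested. The median log2 fold change was -0.02 over the 9 genes and 0.08 over all genes tested. The plot of levels by library shows the values, and the plot of changes gives each fold change with its interval.

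**Figure D1:**
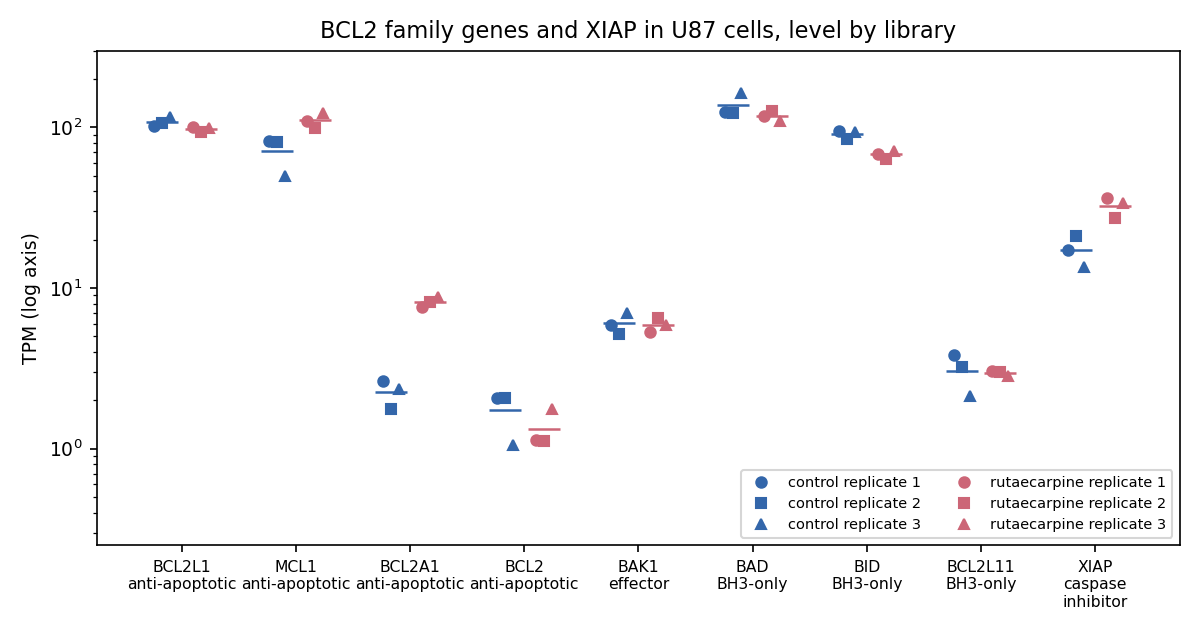
TPM (log axis) of the 9 genes detected, grouped by role, in the 3 control libraries (blue) and the 3 rutaecarpine libraries (red); symbols mark the replicate number and lines the group means. BIK was listed at 0 in all 6 libraries and is not drawn. The BCL2A1, XIAP and MCL1 points of the treated libraries lie above all control points, and those of BID and BCL2L1 lie below.

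Among the anti-apoptotic genes, BCL2A1 changed most. It encodes BFL-1, a small family member best known from blood cells and as a target of NF-kappaB. BCL2A1 (ENSG00000140379, chromosome 15, 79960889 to 79971446, minus strand) had 2.64, 1.76 and 2.34 TPM in control replicates 1, 2 and 3, and 7.59, 8.13 and 8.73 TPM in rutaecarpine replicates 1, 2 and 3. All treated libraries were above all controls. The ratio of the mean TPM was 3.63, and the log2 fold change was 1.50 ± 0.17 (standard error) on the log2(TPM + 1) scale, which understates the change of a weakly expressed gene (adjusted p = 0.00317 by limma with Benjamini-Hochberg adjustment). Leaving out each library in turn gave values from 1.39 to 1.59, called in all 6 fits, with 1.53 without control replicate 3. Even after the rise, BCL2A1 remained a small part of the anti-apoptotic transcripts.

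MCL1 encodes a short-lived protein on which many tumour cells depend. MCL1 (ENSG00000143384, chromosome 1, 150574551 to 150579738, minus strand) had 82.55, 81.13 and 49.82 TPM in the controls and 109.14, 99.75 and 123.56 TPM after rutaecarpine. The groups did not overlap, but control replicate 3 lay far below the other controls, and with all 6 libraries MCL1 was not called (log2 fold change 0.66 ± 0.20, adjusted p = 0.0970 by limma with Benjamini-Hochberg adjustment). Without control replicate 3 the difference was smaller, 0.43, and its interval narrower (0.20 to 0.65), and MCL1 was called (adjusted p = 0.0214 by the same procedure). Centring each library on its median also gave a call (log2 fold change 0.57, adjusted p = 0.0333). With control replicate 3 kept, it was called with library weights (0.48, adjusted p = 0.00668) and with the length and GC correction (0.56, adjusted p = 0.00820). Such weights count more variable libraries less, and the correction was added with that library's values known. MCL1 was called in 5 of the 16 alternatives run, and its direction was upward in all 16.

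BCL2L1 encodes BCL-XL, the most abundant anti-apoptotic transcript of the control cells. BCL2L1 (ENSG00000171552, chromosome 20, 31664452 to 31723989, minus strand) had 102.14, 106.81 and 116.86 TPM in the controls and 100.81, 94.02 and 99.61 TPM after rutaecarpine. The treated libraries all lay below the controls, by a narrow margin, and the log2 fold change of -0.14 (95% confidence interval -0.34 to 0.06) was not called (adjusted p = 0.357 by limma with Benjamini-Hochberg adjustment). Without control replicate 3 it was -0.09, again not called. Gene-level TPM do not separate the long form from the short, pro-apoptotic BCL-XS form that the same gene can make.

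BCL2, the founding member, was the lowest of the genes detected. BCL2 (ENSG00000171791, chromosome 18, 63123346 to 63320128, minus strand) had 2.08, 2.08 and 1.06 TPM in the controls and 1.13, 1.11 and 1.76 TPM after rutaecarpine. The groups overlapped through control replicate 3, which lay below all treated libraries. The log2 fold change was -0.22 (95% confidence interval -0.76 to 0.33, adjusted p = 0.598 by limma with Benjamini-Hochberg adjustment), and -0.41 without control replicate 3, again not called.

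BID was the pro-apoptotic gene that fell. Its protein is cut by caspase 8 and then links death receptors to the mitochondrion. BID (ENSG00000015475, chromosome 22, 17734138 to 17774770, minus strand) had 94.36, 85.23 and 93.00 TPM in the controls and 68.32, 63.71 and 71.48 TPM after rutaecarpine. Every treated library was below every control, and the replicates lay close together, with an SD of 4.93 TPM in the controls and 3.91 TPM after treatment. The ratio of the means was 0.747 and the log2 fold change -0.42 ± 0.09 (adjusted p = 0.0303 by limma with Benjamini-Hochberg adjustment). Without control replicate 3 it was -0.40 with an adjusted p of 0.0164. The call was lost when any of the other 5 libraries was left out (log2 fold changes -0.46 to -0.37, adjusted p up to 0.118) and when each library was centred on its median (-0.51, adjusted p = 0.0793).

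BAD, whose protein is held inactive when phosphorylated by survival kinases such as AKT, was the most abundant of the 10 genes. BAD (ENSG00000002330, chromosome 11, 64269830 to 64284704, minus strand) had 125.21, 122.10 and 164.10 TPM in the controls and 117.46, 125.84 and 110.18 TPM after rutaecarpine. The ranges overlapped, and control replicate 3 was the highest library. The log2 fold change was -0.21 with all libraries (95% confidence interval -0.51 to 0.10, adjusted p = 0.380 by limma with Benjamini-Hochberg adjustment) and -0.07 without control replicate 3. The span of BAD overlaps that of GPR137 on the opposite strand, at 60.6 TPM in the controls and 62.0 TPM after treatment, and no source used here states whether the counting was strand-specific.

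BCL2L11 encodes BIM, which binds all of the anti-apoptotic proteins. BCL2L11 (ENSG00000153094, chromosome 2, 111119378 to 111168447, plus strand) had 3.85, 3.21 and 2.12 TPM in the controls and 3.04, 2.99 and 2.84 TPM after rutaecarpine. The treated values fell inside the range of the controls. The log2 fold change of -0.01 had a 95% confidence interval of -0.50 to 0.47, so the control spread limits what could be seen. Without control replicate 3 it was -0.19, not called. Its span also overlaps a long non-coding gene on the opposite strand, MIR4435-2HG, at 50.9 and 44.4 TPM, so the low BCL2L11 values are uncertain if reads were counted without strand.

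BAK1 encodes the effector BAK. BAK1 (ENSG00000030110, chromosome 6, 33572547 to 33580293, minus strand) had 5.90, 5.19 and 6.96 TPM in the controls and 5.34, 6.54 and 5.86 TPM after rutaecarpine. The groups overlapped, with a log2 fold change of -0.02 (95% confidence interval -0.42 to 0.38), and 0.08 without control replicate 3. BAK1 and BCL2L11 changed sign between fits, and neither was called in any of the 16 alternatives. BIK, a BH3-only gene known for action at the endoplasmic reticulum (ENSG00000100290, chromosome 22, 43110748 to 43129712, plus strand), was listed at 0 in all 6 libraries and was not tested.

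**Figure D2:**
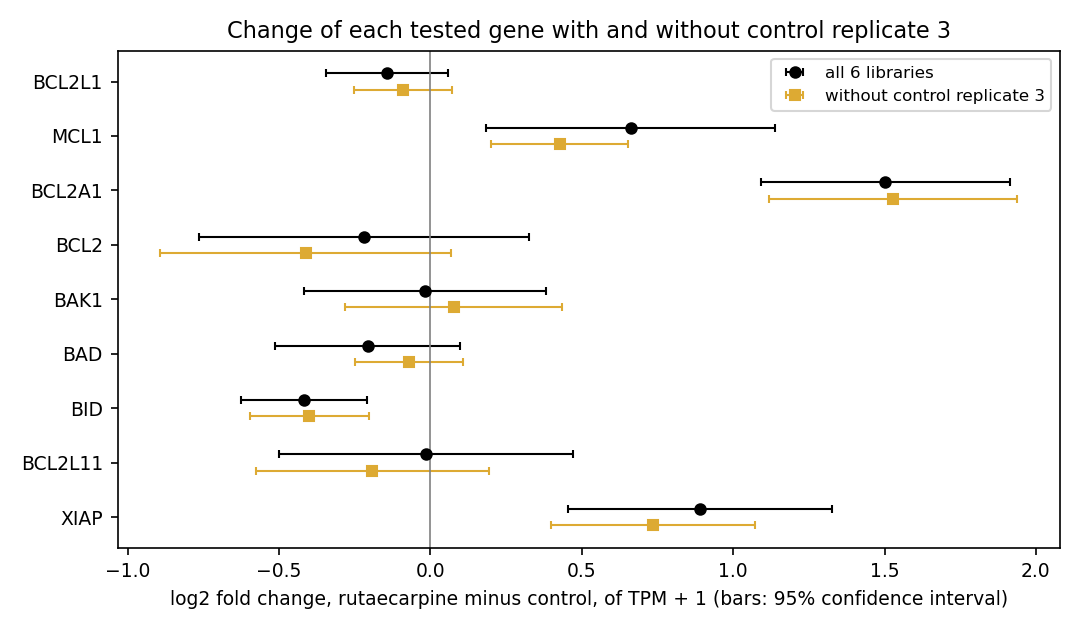
Log2 fold change on the log2(TPM + 1) scale (horizontal axis, rutaecarpine minus control) of the 9 genes tested, with all 6 libraries (black) and without control replicate 3 (yellow); bars are 95% confidence intervals from limma. Leaving out that library moved MCL1 from 0.66 to 0.43 and narrowed its interval, and left BCL2A1 and BID nearly where they were.

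XIAP was the other gene that rose. Its protein binds caspases and blocks their activity. XIAP (ENSG00000101966, chromosome X, 123859724 to 123913979, plus strand) had 17.23, 20.93 and 13.49 TPM in the controls and 36.46, 27.44 and 33.65 TPM after rutaecarpine. All treated libraries exceeded all controls, with a ratio of means of 1.89. The log2 fold change was 0.89 ± 0.19 (adjusted p = 0.0283 by limma with Benjamini-Hochberg adjustment) and 0.74 without control replicate 3 (adjusted p = 0.0125). XIAP has the longest transcript of the 10 genes, 8591 bases at most. Its lowest library in each group, control replicate 3 and rutaecarpine replicate 2, was the one with the lowest median for long transcripts. After trends on the length and GC content of each gene's longest transcript were removed from each library, the log2 fold change was 0.66 (adjusted p = 0.0193). With the median over a gene's transcripts in place of the longest it was 0.81 (adjusted p = 0.00486). XIAP was called in 2 of the 6 fits that left out 1 library, those without control replicate 2 and without control replicate 3, and in the others adjusted p was up to 0.127 with log2 fold changes from 0.81 to 1.00.

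Ordered by mean TPM, the control cells had BAD first, followed by BCL2L1, BID, MCL1, XIAP, BAK1, BCL2L11, BCL2A1, BCL2 and BIK. Each neighbour in that order was apart from the next in all libraries except for BCL2L11, BCL2A1 and BCL2, whose ranges overlapped in sequence. After rutaecarpine the order was BAD, MCL1, BCL2L1, BID, XIAP, BCL2A1, BAK1, BCL2L11, BCL2 and BIK. The ranges of BAD and MCL1 overlapped, as did those of MCL1 and BCL2L1, and the other neighbours were apart. MCL1 and BCL2L1 changed places within libraries. The ratio of MCL1 to BCL2L1 TPM, chosen after the values were seen, which does not depend on how a library is scaled, was 0.808, 0.760 and 0.426 in control replicates 1, 2 and 3 and 1.08, 1.06 and 1.24 in rutaecarpine replicates 1, 2 and 3. MCL1 was thus below BCL2L1 in 3 of 3 controls and above it in 3 of 3 treated libraries. MCL1 has the longer transcript of the pair (3932 against 2610 bases at most), and the control library with the low median for long transcripts had the lowest ratio. BCL2A1 likewise moved past BAK1, from below in 3 of 3 controls to above in 3 of 3 treated libraries.

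The summed levels shifted in opposite directions. The 4 anti-apoptotic genes together had 189, 192 and 170 TPM in the controls and 219, 203 and 234 TPM after rutaecarpine. The 5 pro-apoptotic genes (BAD, BID, BAK1, BCL2L11 and BIK) together had 229, 216 and 266 TPM in the controls and 194, 199 and 190 TPM after treatment. The ratio of the sums was 0.785 ± 0.130 (SD, n = 3) in the controls, with 0.639 in control replicate 3 and 0.826 and 0.889 in the other controls, and 1.12 ± 0.104 (SD, n = 3) after rutaecarpine, with a lowest value of 1.02. No library of one group reached the range of the other. These sums are a description of genes chosen with earlier results known and were not tested, and they depend on which genes are summed. BAD has a shorter transcript than MCL1 (1157 against 3932 bases at most). Control replicate 3, the library low for long transcripts, had the highest BAD and the lowest MCL1 of all libraries. The part of transcript length in the sums was not tested. With all 6 libraries, BAD, MCL1 and BCL2L1 were not called. With the other family genes added (BCL2L2 and BCL2L10 to the anti-apoptotic sum, and BAX, BOK, BBC3, PMAIP1, BMF and HRK to the pro-apoptotic sum, chosen after the values were seen), the ratio was 0.469 to 0.661 in the controls and 0.708 to 0.846 after rutaecarpine. With the abundant BNIP3 and BNIP3L in the pro-apoptotic sum as well, it was 0.249 to 0.265 in the controls and 0.262 to 0.329 after rutaecarpine, and the groups overlapped. BCL2L1 and MCL1 made up nearly the whole anti-apoptotic sum. The share of BCL2L1 was 59.4% ± 8.07 in the controls and 45.0% ± 2.07 after treatment, that of MCL1 38.4% ± 7.91 and 50.6% ± 1.98, and that of BCL2A1 1.23% ± 0.270 and 3.74% ± 0.267. On the pro-apoptotic side BAD and BID dominated in the same way, with BID at 38.5% ± 3.22 and 34.9% ± 2.78.

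**Figure D3:**
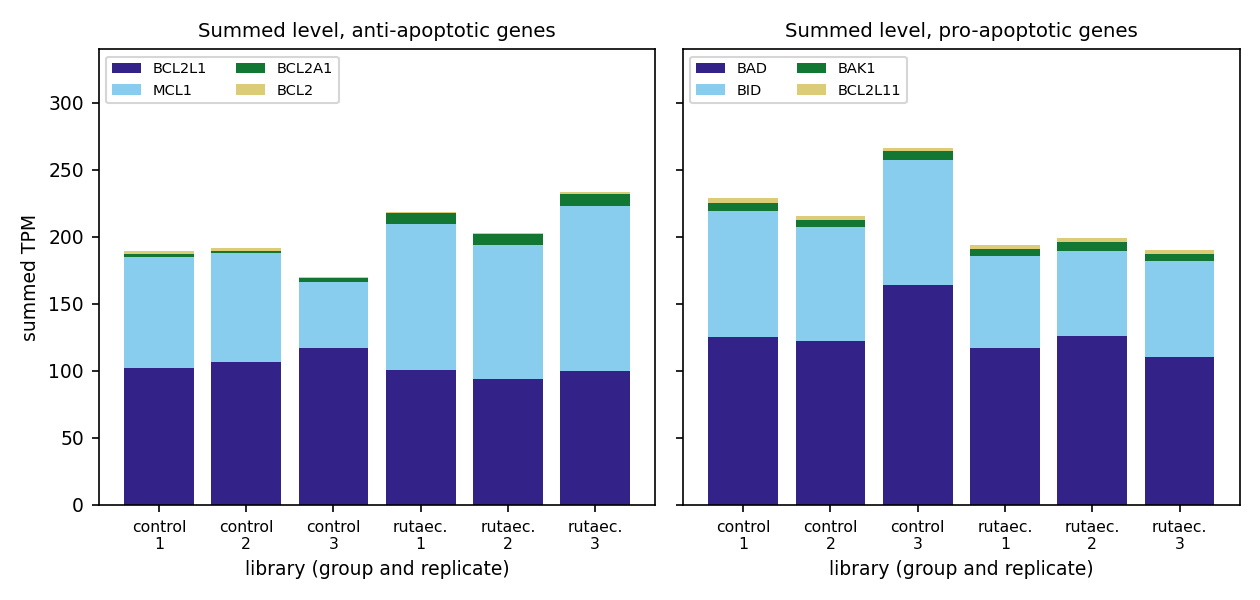
Summed TPM (vertical axis) of the anti-apoptotic genes (left) and pro-apoptotic genes (right) in each of the 6 libraries, stacked by gene; BIK is at 0. The treated libraries hold 203 to 234 TPM of anti-apoptotic and 190 to 199 TPM of pro-apoptotic transcripts, against 170 to 192 and 216 to 266 TPM in the controls.

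The rest of the pathway was described from 6 lists of 68 further genes. Of these, 56 were tested, 5 were called higher and 1 lower, and the median log2 fold change was 0.11. These 6 calls among 56 genes stand beside 9.29% of all genes tested. In the rest of the BCL2 family, 2 of the 9 genes tested rose and 0 fell. BMF, a BH3-only gene whose protein is tied to the cytoskeleton, had 1.50, 2.31 and 1.51 TPM in the controls and 11.95, 6.37 and 10.21 TPM after rutaecarpine. Its log2 fold change was 1.90 ± 0.25 (adjusted p = 0.00551 by limma with Benjamini-Hochberg adjustment), and no other tested gene of these lists had a larger one. BMF passed from below BCL2L11 in 3 of 3 controls to above it in 3 of 3 treated libraries. PMAIP1, which encodes the MCL1-binding protein NOXA, rose from 20.6 ± 2.96 to 33.7 ± 2.96 TPM (SD, n = 3), a change called in 1 of the 6 fits that left out 1 library, that without control replicate 3. Both genes that rose here are pro-apoptotic. BNIP3, the most abundant of this list, was at 300 ± 63.6 and 337 ± 40.0 TPM and was not called.

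Among the other IAP genes and their antagonists, 1 of 8 tested was called, beside 9.29% of all genes tested. BIRC5 (survivin), an IAP that works chiefly in mitosis, fell from 66.8 ± 1.49 to 34.6 ± 0.88 TPM, opposite to XIAP. DIABLO, whose protein relieves XIAP of caspases, was at 58.7 ± 5.40 and 59.4 ± 3.01 TPM. Of the apoptosome and caspase genes, 0 of 11 were called by limma, 3 had an unadjusted p under 0.05 (24.4% of all genes tested did), and the most abundant was CYCS, the cytochrome c gene, at 80.1 ± 9.18 and 90.4 ± 9.88 TPM.

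Of the death receptor genes, 2 of 7 tested rose and 0 fell, beside 4.6% of all genes tested called higher and 4.68% lower. TNFRSF1B, a TNF receptor without a death domain, rose from 27.7 ± 1.43 to 56.8 ± 2.51 TPM. TNFRSF10B, the TRAIL receptor DR5, rose from 63.6 ± 13.7 to 117 ± 14.9 TPM and was called in 2 of the 6 fits that left out 1 library, those without control replicate 2 and without control replicate 3. TNFRSF1A, with the highest mean over the 6 libraries but below TNFRSF10B after rutaecarpine, was at 100 ± 1.78 and 88.5 ± 10.9 TPM and was not called. Beside the same 4.6%, 1 of 13 tested genes for turnover and phosphorylation of the proteins rose. It was PIM3, a survival kinase that can phosphorylate BAD, from 36.6 ± 1.89 to 59.6 ± 2.27 TPM. AKT1 was the most abundant there, at 128 ± 2.51 and 111 ± 7.15 TPM, not called. Of the mitochondrial channel and BH3 partner genes, 0 of 8 were called by limma. Of these, 2 (VDAC3 and BECN1) had an unadjusted p under 0.05, beside 24.4% of all genes tested. DYNLL1, a light chain that binds BIM, had the highest mean of this list over the 6 libraries. It was at 554 ± 44.0 and 483 ± 33.4 TPM.

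**Figure D4:**
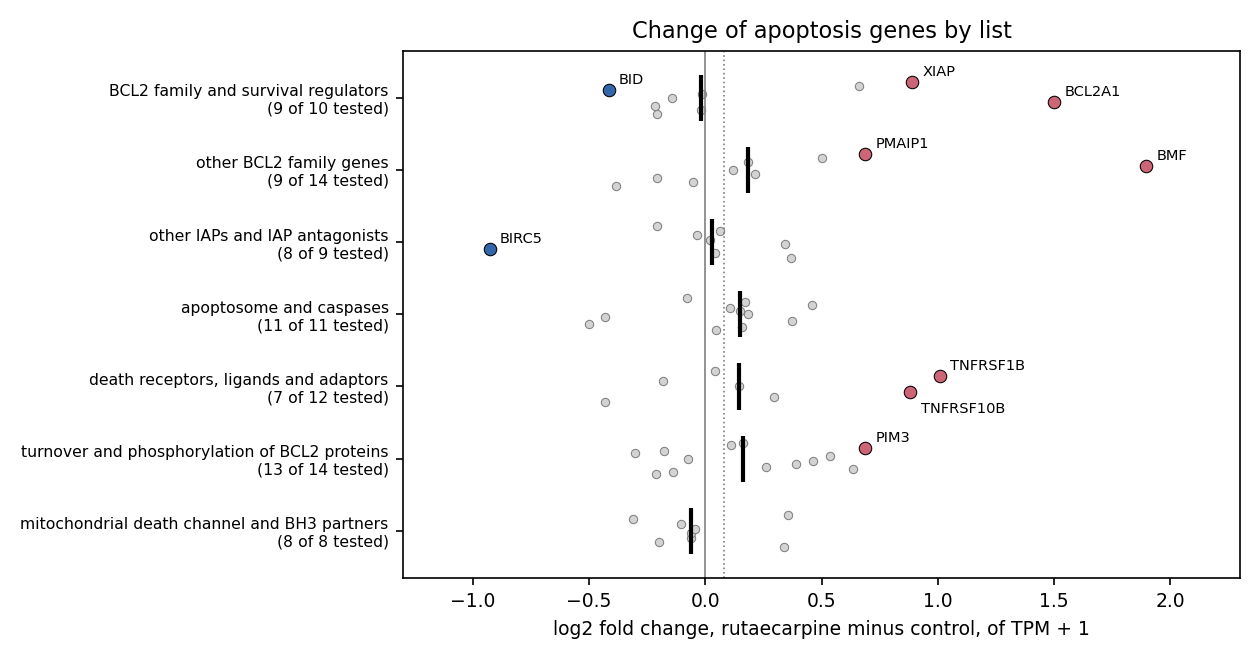
Log2 fold change on the log2(TPM + 1) scale (horizontal axis) of each tested gene, by list; red points were called higher, blue points lower, and grey points were not called at an adjusted p of at most 0.05. Black bars are list medians and the dotted line is the median of all genes tested, 0.08. Most genes lie near the line, with BMF and BCL2A1 farthest to the right and BIRC5 farthest to the left.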

How the data were processed

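The authors prepared Illumina libraries from U87 RNA, sequenced them on an Illumina NovaSeq, and used RSEM to estimate gene abundance. The deposited values are TPM, 1 column per library. The submitters' processing notes name GRCh38.p13, and the aligner, annotation release and strand setting are not given in the sources used here. Groups and replicate numbers came from the titles, and all 6 columns were matched to a sample. The notes also name DESeq2 and edgeR, the count methods of the authors' own analysis, which TPM do not allow. Values were analysed as log2(TPM + 1). The 14377 genes that reached 1 TPM in 3 or more libraries were compared with limma 3.58.1 (R 4.3.3, mean-variance trend, two-sided, Benjamini-Hochberg adjustment). No scaling was added. With 3 libraries against 3, a single gene cannot reach an exact permutation p below 0.1, so the adjusted p rest on the spread pooled over genes. The fit was tested on simulated data with independent errors, no outlying library and changes larger than those of the 10 genes. That test does not cover smaller changes or the spread of control replicate 3. Alternatives were other pseudocounts and filters, centring, no trend, library weights, a replicate block, a length and GC correction and leaving out each library. The 10 genes and the lists were chosen with earlier results of these data known. From each list the text names the called genes (up to 4) and the gene with the highest mean TPM over the 6 libraries. BNIP3L, VDAC3, BECN1 and the genes added to the sums were named after their values were seen, and the values of 1 listed gene are not reported here. Gene positions and transcript lengths came from GENCODE release 29, and promoters from RefSeq. Python 3.11.15 was used for tables and figures.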

Additional observations from a re-analysis of the deposited data

How the results depend on the processing

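BCL2A1, BMF, BIRC5 and TNFRSF1B were called in all 16 alternatives, in the same direction as with all libraries. XIAP was called in 10 of them, BID in 7, PMAIP1 in 9, TNFRSF10B in 10, PIM3 in 14 and MCL1 in 5, each with its direction kept. BCL2L11 turned from -0.01 to 0.13 without control replicate 1, 0.02 without control replicate 2 and 0.0076 without rutaecarpine replicate 3, and was -0.19 without control replicate 3. BAK1 turned from -0.02 to 0.037 with library weights, 0.022 with the length and GC correction, 0.077 without control replicate 3 and 0.043 without rutaecarpine replicate 1, and was -0.10 without control replicate 2.

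Among the 10 genes, 2 were called higher and 1 lower. The number lower was 0 with the libraries centred on their medians and 0 without the trend. It was also 0 with no filter on low TPM and 0 with the replicate block, and the number higher was 1 in both. With an absolute log2 fold change above 1 as well, 1 was higher and 0 lower. Leaving out 1 library gave 1 to 3 higher and 0 to 1 lower, with 3 and 1 without control replicate 3. In the other lists (5 higher, 1 lower) there were 2 lower with centring, 3 higher with no filter, 2 higher with the replicate block, 10 higher and 7 lower with library weights, 6 lower with the length and GC correction (4 with the median transcript), and 3 to 5 higher and 1 to 5 lower without 1 library. The cause of these shifts was not tested.

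Over all genes, 662 were called higher, 673 lower and 505 were DEGs. With no filter 439 were lower. The replicate block gave 236 higher, 192 lower and 318 DEGs, library weights 1935 and 2027 higher and lower, and the length and GC correction 1301 and 1461. That correction was added with the values of control replicate 3 known. It was first run on the median length and GC content over a gene's transcripts, which gave 946 higher and 1152 lower, and the longest transcript was put in its place after those results had been seen, so both are given. Without 1 library there were 242 to 1186 higher, 258 to 1466 lower and 320 to 585 DEGs, the largest counts without control replicate 3. At an adjusted p of at most 0.001 there were 94 DEGs. The main fit paired no libraries, since the methods name no pairing. The deviations of same-numbered libraries from their group means had correlations of 0.12, -0.27 and -0.22 for replicates 1, 2 and 3. With 3 libraries per group, such values cannot tell whether the numbers pair the libraries. The ratio of the summed levels moved by less than 1 SD without BCL2A1 and without each library. Its means (0.785 and 1.12) became 0.567 and 0.828 with BAX as well, 0.588 and 0.780 with the other family genes, and 0.258 and 0.288 with BNIP3 and BNIP3L too, all chosen after the values were seen. TPM keep no depth, so counting error for the weakly expressed BCL2, BCL2A1 and BCL2L11 is unknown.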
